A study of Capra hircus with 3 samples.

Results

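The miR-29 family was followed in the skin of the Shanbei White cashmere goat through the stages of the hair cycle. Its members here are miR-29a, miR-29b and miR-29c, and every distinct sequence, called a tag, was counted for a member when it shared its first 18 nt with a tag that the copy of the study's annotation used here lists for that precursor, or with the mature arm of that name where that copy lists none. The rule took 307 distinct tags out of the 4043974 in the 3 libraries. Of these, 175 belonged to miR-29a-3p, 58 to miR-29b-3p, 58 to miR-29c-3p, 13 to miR-29a-5p and 3 to miR-29b-1-5p. The names 3p and 5p stand for the arms cut from the 3′ and the 5′ side of the hairpin precursor. No 5p tag is listed under the name of miR-29c in the copy of the annotation used.

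Small RNA was sequenced in anagen, the growth stage, catagen, the regression stage, and telogen, the resting stage, with 1 library per stage from the pooled skin RNA of 10 adult goats of both sexes, taken at the side of the body, with no treatment named in the labels. Wherever 3 values stand together without a stage, they follow the order anagen, catagen, telogen. The libraries held 15997828, 18111912 and 27016012 clean reads. All levels are RPM, reads scaled to 1000000 clean reads, a unit the study calls TPM. Since each stage had 1 library and no replicate, the tests compared libraries and not stages, and the intervals, which are 95% exact intervals, cover counting error only.

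A miRNA guides a silencing complex to messenger RNAs, mostly through bases 2 to 8, its seed. The miR-29 family is known for repressing matrix genes, among them the fibrillar collagens, elastin and fibrillin, and transforming growth factor beta lowers it in fibroblasts. In skin, the dermal fibroblasts that make collagen surround follicles that regrow with each cycle.

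The mature tags of the family are shown first because a few bases decide which member a read was counted for. Each is the most read tag of at least 21 nt of its arm, with the seed in capitals.
miR-29a-3p: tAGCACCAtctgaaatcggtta
miR-29b-3p: tAGCACCAtttgaaatcagtgtt
miR-29c-3p: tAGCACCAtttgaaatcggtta
The 3 arms had the same seed and the same first 9 nt. Counted from 1 at the 5′ end, miR-29a-3p and miR-29c-3p differed by C10T alone, and miR-29c-3p and miR-29b-3p by G18A within the first 18 nt and by T21G and A22T after it. The tag of miR-29b-3p was 23 nt long and the other 2 were 22 nt. In RefSeq's genes for goat assembly ARS1.2, MIR29B and MIR29C lie on 1 chromosome with 1 other gene starting between them, and MIR29A lies on another. Those 3 are all the genes of the family found there. The study's annotation names more precursors, among them mir-29b-1 and mir-29e, which were not placed in the genome here.

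miR-29a-3p was by far the most read member. It had 44396, 69408 and 87336 reads, which is 2775 RPM, 3832 RPM and 3233 RPM. Among the 453 miRNA arms compared, which were the 3 3p arms and 450 from the annotation, it ranked 14, 12 and 11 by reads. The copy of the annotation used here is shortened and lacks the main arm of some miRNAs, so these ranks hold for that set only. miR-29c-3p followed with 2826, 5834 and 6998 reads, which is 177 RPM, 322 RPM and 259 RPM. miR-29b-3p had 1356, 2074 and 2133 reads, which is 84.8 RPM, 115 RPM and 79.0 RPM. In RPM, all 3 arms were highest in the catagen library. For miR-29a-3p and miR-29c-3p the difference between catagen and telogen depended on the scaling. The order of the members was miR-29a-3p above miR-29c-3p above miR-29b-3p in all 3 libraries, with counting intervals that did not overlap between members within a library.

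**Figure D1:**
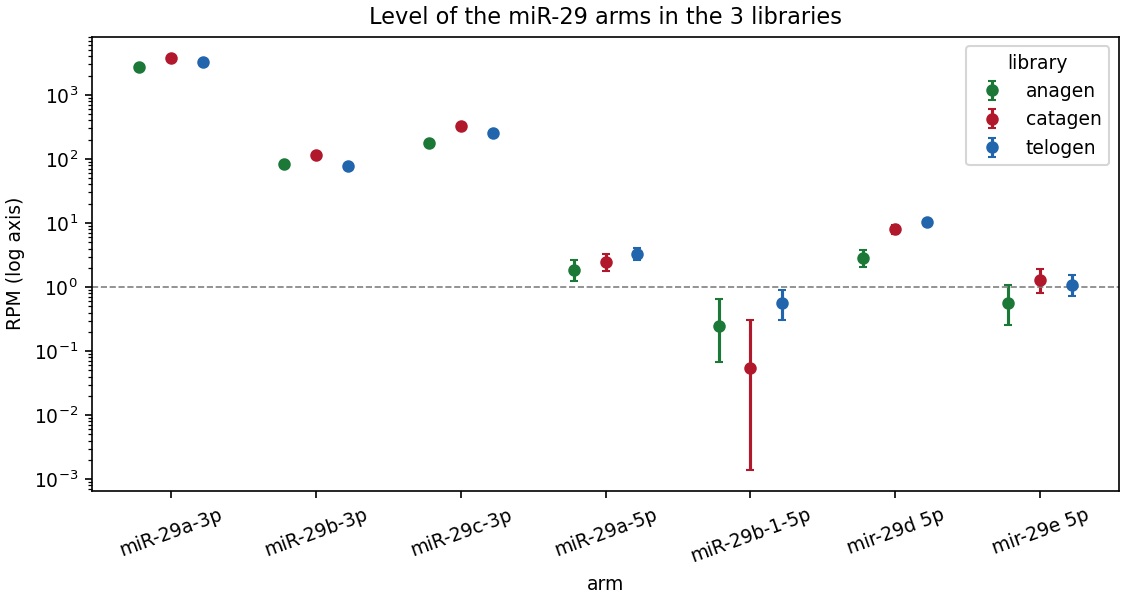
RPM, on a log axis, of the 3p and 5p arms of the miR-29 family in the anagen, catagen and telogen libraries; points are single libraries, bars are exact Poisson 95% intervals and the dashed line marks 1 RPM. The 3p arms lie between 79.0 and 3832 RPM, and miR-29b-1-5p stays under 1 RPM in all 3 libraries.

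The comparison between stages asked whether the level of a member followed the hair cycle. A miRNA arm was called when its absolute log2 ratio was above 1 at p under 0.01 in the exact Audic-Claverie test, taken as two-sided. By this rule 0 of the 3 3p arms were called in any pair of libraries. Across all arms with at least 1 RPM in either library, 27.6% were called between anagen and catagen, 24.7% between anagen and telogen, and 14.1% between catagen and telogen. Among more deeply read arms, with 100 reads or more in each library of the pair, the shares were 17.6%, 12.2% and 10%. The 3p arms had 1356 reads or more in each library, far above that limit. The exact p was under 0.01 for 8 of the 9 ratios of these arms, so it was the size of the ratio that kept them from a call. Small p-values are common at such depth, as the test covers counting error only. In anagen over catagen, miR-320a had a log2 ratio of -0.22 at an exact Audic-Claverie p of 2.345e-268. The count of 8 is therefore not particular to the family. In anagen over catagen, 2 of the 3 arms lay close to the median of -0.38 over the arms with at least 100 reads in each library, which were 32.2% of all arms. In bulk skin, fewer cells of a type and less RNA per cell cannot be told apart.

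The log2 ratio of miR-29c-3p in anagen over catagen was -0.87 (interval -0.93 to -0.80, exact Audic-Claverie p = 5.813e-160, 4.7e-159 after Benjamini-Hochberg adjustment over all arms tested), the furthest from 0 of the 9 ratios of the 3p arms. It was -0.55 (-0.62 to -0.49) in anagen over telogen and 0.31 (0.26 to 0.36) in catagen over telogen. When reads were scaled to those assigned to miRNA arms, the last fell to 0.02, with an exact Audic-Claverie p of 0.416. The anagen library thus had the lowest level of miR-29c-3p, 1.82-fold under catagen. The log2 ratio of miR-29a-3p was -0.47 (-0.48 to -0.45) in anagen over catagen, with an exact p too small to be computed. It was -0.22 (-0.24 to -0.20) in anagen over telogen and 0.25 (0.23 to 0.26) in catagen over telogen, and the last turned to -0.048 when reads were scaled to those assigned to miRNA arms. The log2 ratio of miR-29b-3p was -0.43 (-0.53 to -0.33) in anagen over catagen and 0.54 (0.45 to 0.62) in catagen over telogen. Between anagen and telogen it was 0.10 (0.00 to 0.20), with an exact p of 0.0410 (0.0552 adjusted), which does not pass the limit, and the sign changed with the scaling and with the tags counted.

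Summed over the 3 arms, the family had 48578, 77316 and 96467 reads, or 3037 RPM, 4269 RPM and 3571 RPM. The log2 ratio of the sum was -0.49 in anagen over catagen, beside the median arm at -0.38. Size factors from the median of ratios moved the median of those arms to -0.06 in anagen over catagen, to -0.05 in anagen over telogen and to 0.02 in catagen over telogen. On that scale the ratios of anagen over catagen were -0.15 for miR-29a-3p, -0.11 for miR-29b-3p and -0.55 for miR-29c-3p. Only the last of these was over 0.2 from the median arm.

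miRNAs of skeletal muscle moved in the same order over the libraries as miR-29a-3p and miR-29c-3p. The list of miR-206, miR-1 and both forms of miR-133, which shared an arm, summed to 4100 RPM, 78534 RPM and 21326 RPM, and its 3 arms were called in all 3 pairs, beside 27.6%, 24.7% and 14.1% of all arms in anagen over catagen, in anagen over telogen and in catagen over telogen. Its part in the miR-29 levels was not tested. When reads were scaled to the assigned reads without this list, the ratio of miR-29c-3p in anagen over catagen became -1.14 and passed the rule for a call. The order catagen, telogen, anagen was found in 33.6% of the arms with at least 100 reads in each library.

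Other lists placed the samples as skin with several cell types. Epithelial miRNAs (7 of 8 names had an arm, miR-203 had none) summed to 1218 RPM, 1978 RPM and 2054 RPM, mostly miR-205, a miRNA of keratinocytes. miR-205 set the order of this sum, with 990 RPM, 1790 RPM and 1863 RPM. miR-183 was highest in anagen instead, with 96.8 RPM in catagen and 89.7 RPM in telogen and a log2 ratio of 0.55 in anagen over catagen, where the median of the list was 0.06 and 0 of its 6 tested arms were called. Mesenchymal miRNAs (3 of 4 names, without miR-199b) summed to 11344 RPM, 21626 RPM and 15757 RPM. This sum had the same order of libraries as miR-29a-3p and miR-29c-3p, and the part of these miRNAs was not tested either. Most of the sum was miR-199a, with 10157 RPM, 18215 RPM and 14134 RPM, and miR-152 had the same order. The listed arm of miR-214, with at most 41 reads in a library, was highest in telogen instead. Smooth muscle miRNAs summed to 12385 RPM, 7447 RPM and 11511 RPM, nearly all of it miR-143 with 12360 RPM, 7409 RPM and 11478 RPM. miR-145 had the opposite order, with 24.9 RPM, 37.5 RPM and 32.9 RPM. The other sums were those of miR-126 of endothelium at 38.8 RPM, 31.7 RPM and 36.9 RPM, leukocyte miRNAs (4 of 5 names, without miR-150) at 1517 RPM, 1806 RPM and 2172 RPM, and red blood cell miRNAs at 1298 RPM, 2118 RPM and 875 RPM. The leukocyte sum was mostly miR-146, with 1404 RPM, 1656 RPM and 1991 RPM. miR-142 and miR-223 were also highest in telogen, miR-223 with 7.69 RPM, 12.1 RPM and 49.4 RPM, but miR-155 was highest in catagen. Among red blood cell miRNAs, miR-451 and miR-486 were highest in catagen. miR-144 was highest in anagen instead, with 104 RPM, 76.4 RPM and 7.18 RPM. miR-122 of liver or serum had no arm in the annotation used.

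**Figure D2:**
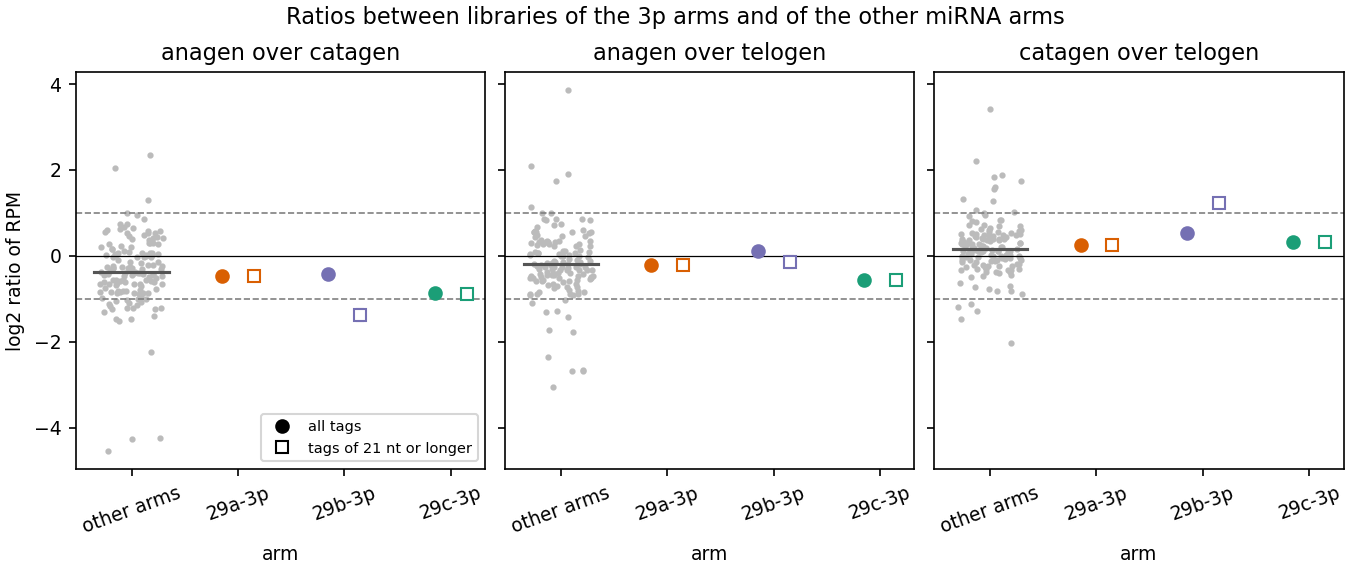
Log2 ratio of RPM between each pair of libraries for the 3p arms, with all tags (filled circles) and with tags of 21 nt or longer (open squares), beside the other arms with at least 100 reads in each library (grey points, their median as a bar). Bars on the members are exact 95% intervals, mostly smaller than the symbols, and dashed lines mark a log2 ratio of 1 and -1; miR-29b-3p in anagen over catagen lies at -0.43 with all tags and at -1.37 with the longer ones.

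The share of each member within the family does not depend on how libraries are scaled. miR-29a-3p made up 91.4% (interval 91.1 to 91.6), 89.8% (89.6 to 90.0) and 90.5% (90.3 to 90.7) of the reads of the 3 arms. miR-29c-3p made up 5.82% (5.61 to 6.03), 7.55% (7.36 to 7.73) and 7.25% (7.09 to 7.42), so its share was lowest in anagen by more than the counting error. For each read of miR-29c-3p there were 15.7, 11.9 and 12.5 reads of miR-29a-3p. miR-29b-3p made up 2.79% (2.65 to 2.94), 2.68% (2.57 to 2.80) and 2.21% (2.12 to 2.31), with overlapping intervals in anagen and catagen and a lower share in telogen. Among reads of 21 nt or longer its share was 1.25% (1.15 to 1.35), 2.26% (2.16 to 2.37) and 1.16% (1.10 to 1.23), so catagen was then highest.

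Short tags took a larger share of miR-29b-3p than of the other members. Its 5 most read forms are printed because the level of the arm turns on which of them are counted, with the last 6 bases of the mature tag, as far as a form holds them, in capitals.
miR-29b-3p, 20 nt: tagcaccatttgaaatcAGT
miR-29b-3p, 21 nt: tagcaccatttgaaatcAGTG
miR-29b-3p, 22 nt: tagcaccatttgaaatcAGTGT
miR-29b-3p, 23 nt: tagcaccatttgaaatcAGTGTT
miR-29b-3p, 24 nt: tagcaccatttgaaatcAGTGTTt
The hexamer AGTGTT at the end of miR-29b is known from human cells as a signal for import into the nucleus, and the 20-nt form lacks its last 3 bases. The 20-nt form had 733, 333 and 989 reads. The 23-nt form had 244, 913 and 427 reads, so the longer form was the more read in catagen and the shorter in the other libraries. The 22-nt form had 149, 503 and 326 reads, the 21-nt form 106, 87 and 187, and the 24-nt form 28, 96 and 54.

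The whole hexamer was present in 20.9% (interval 18.7 to 23.1), 49.7% (47.5 to 51.8) and 23.3% (21.6 to 25.2) of the reads of miR-29b-3p. Reads of 18 to 20 nt made up 56.3%, 16.5% and 48.3% of the arm. The same share was 0.743%, 0.424% and 0.767% in miR-29a-3p and 1.80%, 0.446% and 1.20% in miR-29c-3p. All 3 members had the lowest share in catagen, and the share was far larger in miR-29b-3p than in the other members in every library. Among the 82 arms with at least 500 reads in each library the median share was 7.26%, 2.06% and 3.27%, and miR-29b-3p ranked 5, 9 and 3 from the most shortened.

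**Figure D3:**
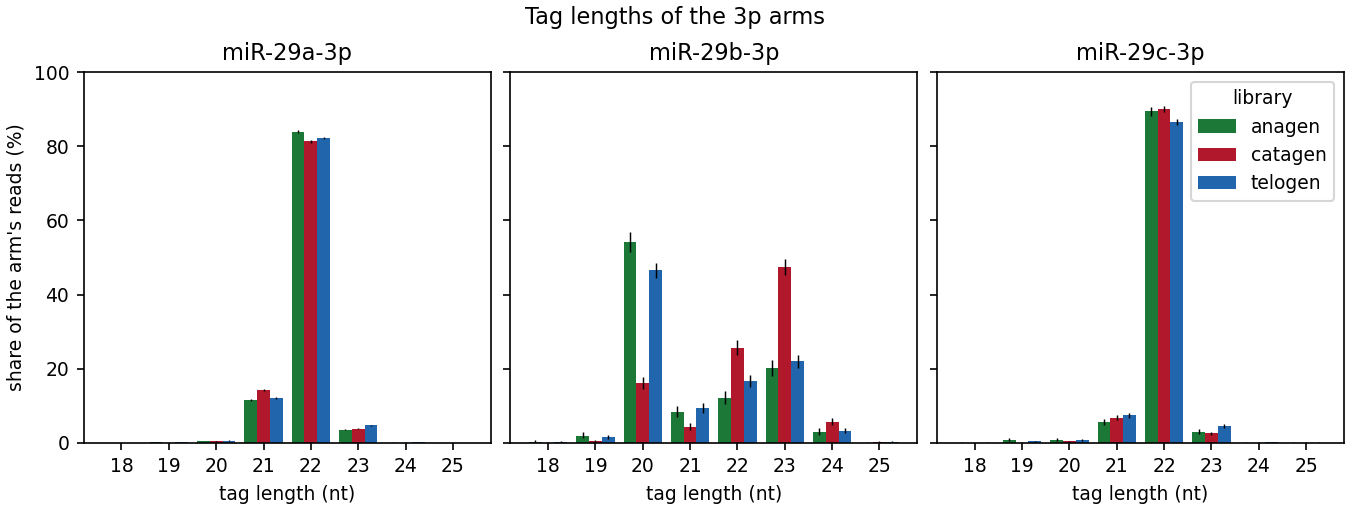
Share of the reads of each 3p arm by tag length, in percent, in the anagen, catagen and telogen libraries, with exact 95% intervals. miR-29a-3p and miR-29c-3p have one peak at 22 nt in all libraries, and miR-29b-3p has a peak at 20 nt in anagen (54.1%) and telogen (46.5%) and at 23 nt in catagen (47.4%).

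The difference between libraries was not particular to miR-29b. The share of reads of 18 to 20 nt was higher in anagen than in catagen in 80 of the 82 arms, and it stood in the order anagen, telogen, catagen in 58. Reads under 18 nt, which the authors had removed, were 3.38%, 2.66% and 0.566% of those of high quality, which is another order. The part of RNA quality or library preparation in the 3′ ends was not tested. Of the 82 arms, 7 had a mature tag that ended in GTT like that of miR-29b-3p. Tags that lacked exactly these 3 bases made up 54.1%, 16.1% and 46.4% of miR-29b-3p, and 38.2%, 5.02% and 21.8% of let-7i. In let-7b the shares were 6.32%, 0.578% and 2.32%, and in the other 4 arms they were at most 0.301%. In all 7 the order was anagen, telogen, catagen. These arms were grouped by their end after the values of miR-29b-3p were seen.

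**Figure D4:**
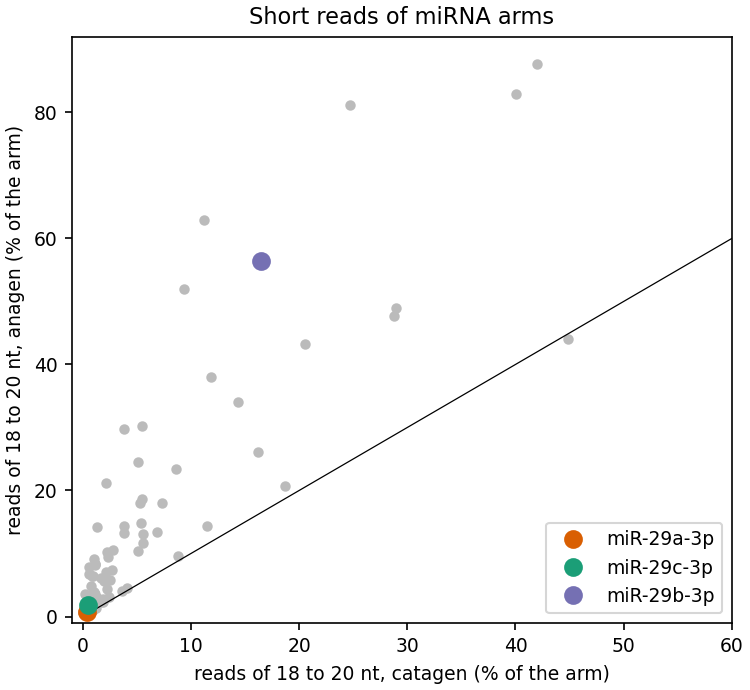
Reads of 18 to 20 nt as a percentage of the reads of each arm, in catagen (horizontal axis) and anagen (vertical axis), for the 82 miRNA arms with at least 500 reads in each library; the line marks equal shares. miR-29b-3p lies at 16.5% and 56.3%, and miR-29a-3p and miR-29c-3p lie near the origin.

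With tags of 21 nt or longer only, miR-29b-3p had 592, 1732 and 1102 reads, which is 37.0 RPM, 95.6 RPM and 40.8 RPM. Its log2 ratio was then -1.37 (interval -1.51 to -1.23) in anagen over catagen, with an exact Audic-Claverie p of 5.417e-100, and 1.23 (1.12 to 1.34) in catagen over telogen, with p = 5.502e-112. Both passed the rule for a call, where 35.7% and 15.1% of all arms did so among tags of this length. In anagen over telogen the ratio was -0.14 (-0.29 to 0.00) and was not called, where 27.2% of all arms were. The short tags moved the other way, with 47.8 RPM, 18.9 RPM and 38.2 RPM. miR-29a-3p stayed at -0.47 and miR-29c-3p at -0.89 in anagen over catagen with the longer tags, so 1 of the 3 members was called.

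The 3′ ends of miR-29a-3p and miR-29c-3p resembled each other in kind and differed in amount. Their main tag, a shorter one and forms with a base not in the mature tag, which is in capitals, are shown for miR-29a-3p.
miR-29a-3p, mature: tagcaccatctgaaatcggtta
miR-29a-3p, 1 base shorter: tagcaccatctgaaatcggtt
miR-29a-3p, other last base: tagcaccatctgaaatcggttT
miR-29a-3p, A after it: tagcaccatctgaaatcggttaA
miR-29a-3p, T after it: tagcaccatctgaaatcggttaT
The mature tag held 77.7%, 74.9% and 76.0% of the reads of miR-29a-3p, and 84.1%, 84.8% and 81.5% of those of miR-29c-3p. The tag 1 base shorter held 11.4%, 14.2% and 11.9% of miR-29a-3p and 5.48%, 6.60% and 7.30% of miR-29c-3p. The tag with T as its other last base held 5.11%, 5.45% and 5.04% of miR-29a-3p and 4.32%, 4.75% and 4.07% of miR-29c-3p. A further A after the mature tag was found in 2.02%, 2.17% and 2.87% of miR-29a-3p, and in 1.77%, 1.47% and 2.82% of miR-29c-3p, highest in telogen in both. No hairpin sequence was used here, so bases added after transcription and bases of the precursor cannot be told apart.

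The 5′ start sets the seed, so reads with another start would carry another one. In miR-29a-3p, reads with 1 further base at the start numbered 559, 1377 and 1410. Their most read tag, shown with its shifted seed in capitals, was a C followed by the first 21 bases of the mature tag.
miR-29a-3p, 1 base earlier: cTAGCACCatctgaaatcggtt
These reads made up 1.24% (interval 1.14 to 1.35), 1.94% (1.84 to 2.05) and 1.59% (1.51 to 1.67) of all starts within 2 nt. In miR-29b-3p the share was 1.81%, 1.52% and 2.69%, from 25, 32 and 59 reads. In miR-29c-3p it was 0.141% (0.0384 to 0.360), 0.0171% (0.000433 to 0.0953) and 0.114% (0.0493 to 0.225), from 4, 1 and 8 reads. The intervals of miR-29c-3p lay under those of both other members in every library.

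The 5p arms were read far less. Their most read tags are shown, with bases 2 to 8 in capitals, since none has the seed of the 3p arms.
miR-29a-5p: aCTGATTTcttttggtgttcag
miR-29b-1-5p: gCTGGTTTcatatggtggtttaga
mir-29d, 5p tag: tGACCGATttctcctggtgtt
mir-29e, 5p tag: cTGGTTTCacatggtggcttag
The annotation also lists precursors mir-29d and mir-29e, whose 5p tags correspond to sequences known in human as the 5p arms of mir-29c and mir-29b-2, and they are given here beside the members under their listed names. At its most read start, miR-29a-5p had 30, 44 and 88 reads, which is 1.88 RPM, 2.43 RPM and 3.26 RPM. The rule for the members also counts a start 2 nt later, with 4 telogen reads, which makes 92 reads in telogen. miR-29b-1-5p had 4, 1 and 15 reads and stayed under 1 RPM in all libraries, so it was not tested. The 5p tags of mir-29e had 9, 23 and 29 reads. The 5p tags of mir-29d had 45 reads in the anagen library and 276 in the telogen library, and levels of 2.81 RPM, 8.01 RPM and 10.2 RPM. Telogen was thus above catagen, unlike in the 3p arms, but by little. The log2 ratio of catagen over telogen was -0.35 (-0.65 to -0.06), with an exact Audic-Claverie p of 0.0188 (0.0340 adjusted), and was not called. With the exact mature tag only it was -0.05.

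The log2 ratio of miR-29a-5p was -0.37 (-1.09 to 0.33) in anagen over catagen and -0.80 (-1.45 to -0.18) in anagen over telogen, and neither was called. The ratio of mir-29d was -1.51 (-2.03 to -1.02) in anagen over catagen, with an exact p of 6.715e-11 (2e-10 adjusted), and -1.86 (-2.35 to -1.40) in anagen over telogen, with p = 4.674e-20 (1.836e-19 adjusted), and both were called. Counting starts up to 2 nt away left both ratios of mir-29d called. The ratio of mir-29e was -1.17 (-2.47 to -0.01) in anagen over catagen, at an exact p of 0.0480, and was not called. For each 5p read of miR-29a there were 1480, 1577 and 992 reads of the 3p arm. miR-29c-3p had 62.8, 40.2 and 25.4 reads per read of mir-29d, if these are arms of 1 precursor. Against the 5p reads of miR-29b-1 and mir-29e together, miR-29b-3p had 104, 86.4 and 48.5 reads per read with all tags. With tags of 21 nt or longer these values were 45.5, 72.2 and 25.6, from 13, 24 and 43 5p reads. Catagen and not anagen was then highest, but the intervals of the 3p share overlapped between these libraries in both settings. With the longer tags they were 96.4% to 98.9% in anagen and 98.0% to 99.1% in catagen.

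Since single bases separate the members, misread bases could move reads between them. The 4 combinations of the bases at positions 10 and 18 include one that belongs to no member, and it had 21, 5 and 14 reads. The change C10T, which turns the tag of miR-29a-3p into that of miR-29c-3p, was at 6.37%, 8.41% and 8.01% of the reads of miR-29a-3p. At the 4 other C positions the same kind of change was found in at most 0.266%, 0.0922% and 0.0756%, so that a misreading of that size would give 4.18%, 1.10% and 0.943% of the reads counted for miR-29c-3p. All single-base changes of miR-29a-3p that give no member summed to 1127, 541 and 889 reads, or 2.54%, 0.779% and 1.02% of its reads.

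**Figure D5:**
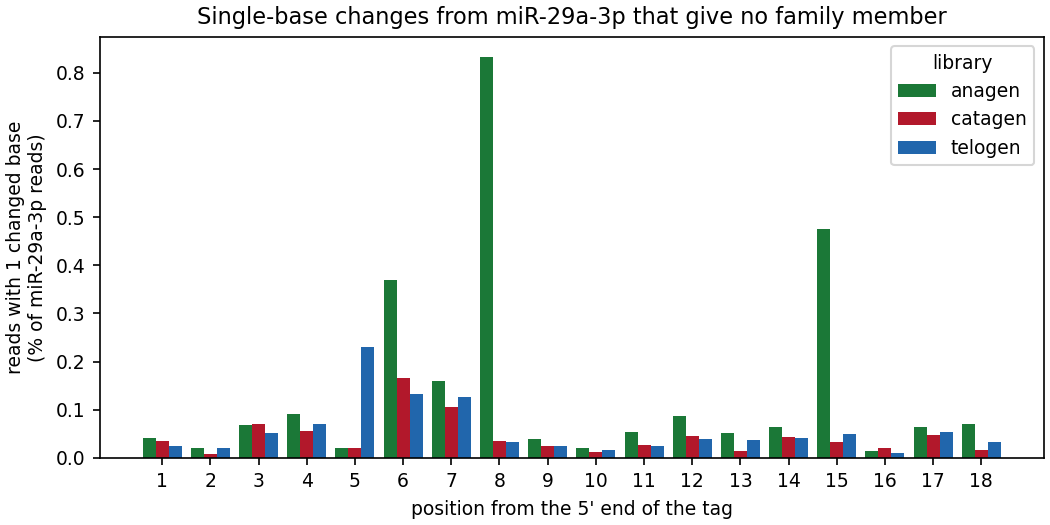
Reads that differ from the first 18 nt of miR-29a-3p by 1 base, in percent of its reads, by position from the 5′ end, with changes that give miR-29c-3p left out; bars are single libraries. Anagen stands out at positions 8 and 15 and telogen at position 5.

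The 3p arms were taken as the 3 most read starts with the seed, so their share of the reads with it is a description that follows in part from this choice. Reads with AGCACCA at bases 2 to 8 numbered 49153, 77660 and 97002. The 3p arms made up 98.8% (interval 98.7 to 98.9), 99.6% (99.5 to 99.6) and 99.4% (99.4 to 99.5) of them.

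Other miRNAs known to act on matrix or on signalling by transforming growth factor beta were taken from a list of 14 names, of which 13 had an arm and miR-192 had none. For miR-30c, miR-200c and miR-214 the annotation held only arms of at most 41 reads in a library. Of the 12 arms, 11 were tested, and 2 were called in anagen over catagen, both lower in anagen, namely miR-194 and the arm shared by miR-133a and miR-133b, beside 27.6% of all arms. The same 2 arms were called lower in anagen than in telogen, beside 24.7% of all arms, and 1 arm, that of miR-133, higher in catagen than in telogen, beside 14.1%. The median log2 ratio of the list was -0.59 in anagen over catagen, beside -0.45 over all arms tested, and -0.41 in anagen over telogen, beside -0.34. miR-21, which is induced by transforming growth factor beta in many cells, stood at 2324 RPM, 3672 RPM and 2725 RPM.

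The arms whose levels over the 3 libraries lay nearest to each member, by the root mean square difference of centred log2 RPM among the arms with at least 100 reads in each library, are named by their precursors. For miR-29a-3p they were the less read arm of mir-28 (0.0245), mir-224 (0.0543) and an arm of mir-30a (0.0567). The copy of the annotation used holds 1 arm of mir-30a, at 30.4 RPM, 44.7 RPM and 34.3 RPM, and the value is for that arm only. For miR-29b-3p they were mir-374a (0.00823), the less read arm of mir-193b (0.0438) and mir-760 (0.0510). For miR-29c-3p they were mir-130b (0.0118), the arm shared by mir-23a and mir-23b (0.0241) and that of mir-199a-1 (0.0315). With 3 libraries such likeness is common, and 13, 9 and 12 arms lay within 0.1 of miR-29a-3p, miR-29b-3p and miR-29c-3p.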

How the data were processed

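The deposited files give, for each of the 3 libraries, every distinct clean tag with its read count, which is a raw count without normalisation, and a record by the authors of the reads removed in filtering. Per the paper, the authors dropped reads of low quality, of adapters or poly(A), without an insert or under 18 nt. In the deposited files identical reads are joined into tags. No alignment or genome build enters these counts, and the tools and versions of this step are not given in the sources used here. Each library came from the pooled RNA of 10 goats, and libraries were grouped by the stage in their labels. Replicates were not available within a stage, so the tests compare libraries.

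Tags were assigned to an arm by their first 18 nt. The 3p arms, for which the shortened copy of the study's annotation used here lists no tag, were taken as the 3 most read 18-nt starts with the seed AGCACCA at bases 2 to 8, and were named by the bases at positions 10 and 18 that are textbook knowledge. The other 450 arms came from the listed tags, joined where they overlapped by at least 14 nt, with at most 2 arms per precursor, each at its most read start. The reads assigned to arms were 46.3%, 45.9% and 37.5% of clean reads in anagen, catagen and telogen. Levels are RPM with exact Poisson intervals, shares and ratios have exact Clopper-Pearson intervals at 95%, and the test was the two-sided exact Audic-Claverie test on counts, with a call where the log2 ratio was over 1 in size and p was under 0.01, for arms with at least 1 RPM in either library. PCR reads without molecular identifiers are not independent molecules. A count of 0 allows up to 3 reads, or 0.188, 0.166 and 0.111 RPM in anagen, catagen and telogen.

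The test was tested on simulated counts of 453 arms with 4-fold changes in 200 of them, and it called 66 of 66, 64 of 64 and 71 of 71 changed arms with at least 100 reads for the 3 comparisons. Among unchanged arms tested it called 1 of 153 between anagen and catagen and none of 140 between anagen and telogen. The simulated counts had Poisson spread only. These values therefore say nothing on spread between animals or libraries, or on changes under 4-fold. Of 1788 simulated tags, 1788 returned to their own arm. The simulated tags differed at their 3′ ends only and kept the leading bases by which tags are assigned. Their return was therefore fixed by construction. It says nothing on misread bases or shifted 5′ starts, which were not simulated. The genes named were the members, the other arms of their precursors and the 3 arms nearest to each 3p arm, with lists by counts, medians and summed levels. The members and lists were chosen with earlier results of these data known. Lists were skeletal muscle, red blood cells, epithelium, mesenchyme, smooth muscle, endothelium, leukocytes, liver or serum, and matrix signalling. Alternatives changed the scaling, the tags counted, the minimum and the test. Python 3.11.15 and SciPy 1.17.1 were used.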

Additional observations from a re-analysis of the deposited data

Results flagged for a closer look

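Among reads outside the comparisons, 4 sequences near the family were picked, each above the 3 reads that a count of 0 allows in at least 1 library. Other sequences stood above that limit too, among them miR-29a-3p with C6T, at 118, 64 and 53 reads. With positions counted from 1 at the 5′ end of miR-29a-3p, tags with A8C had 349 reads in anagen and 1 read in each other library, or 0.786%, 0.00144% and 0.00115% of the reads of miR-29a-3p. Tags with A15C had 186 anagen reads, 3 catagen reads and 10 telogen reads. Tags with A5G had 135 reads in telogen, 6 in anagen and 3 in catagen. The same changes were looked for in the other arms with at least 5000 reads in each library and the same base at that position. A8C had a median share of 0.905% in anagen over 5 such arms and at most 0.00447% in catagen and 0.00774% in telogen. A15C had a median of 0.465% in anagen over 7 arms and at most 0.0130% in catagen and 0.0113% in telogen, and A5G a median of 0.170% in telogen over 5 arms, against 0.0445% in anagen and 0.00488% in catagen. All 5, 7 and 5 arms were highest in the same library as miR-29a-3p.

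A tag start with the seed of the family but not its first 9 nt had 11 reads in catagen and 65 in telogen, and 0 reads in anagen, which allows up to 0.188 RPM. It does not appear among the listed tags of the annotation used, and it is shown with the seed in capitals.
Tag with the miR-29 seed: aAGCACCAcgggattcagctcg
It reached 0.607 RPM in catagen and 2.41 RPM in telogen, against 3832 RPM and 3233 RPM for miR-29a-3p.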

How the results depend on the processing

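Of 174 values recomputed under other settings, 138 kept their direction and their side of the threshold or stayed within their interval, and 7 changed sign. With tags of 21 nt or longer, the log2 ratio of miR-29b-3p became -1.37 in anagen over catagen, -0.14 in anagen over telogen and 1.23 in catagen over telogen. With the exact mature tag only it became -1.72, -0.051 and 1.67, and mir-29e 5p became -0.42 in catagen over telogen. By construction, these settings leave out the 20-nt form of miR-29b-3p. Scaled to reads assigned to arms, catagen over telogen became -0.048 for miR-29a-3p, 0.021 for miR-29c-3p and -0.051 for mir-29e 5p. On that scale anagen over telogen became -0.20 for miR-29b-3p and -1.10 for miR-29a-5p. The latter was then called, where 34.4% of all arms were. Without the muscle list in that sum, anagen over telogen became -0.27 for miR-29b-3p and anagen over catagen -1.14 for miR-29c-3p. The cause was not tested.

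The calls over all arms were 78 between anagen and catagen, 69 between anagen and telogen and 40 between catagen and telogen, and with at least 100 reads in both libraries they were 26, 18 and 17, or 17.6%, 12.2% and 10% of the 148, 148 and 170 arms tested in place of 27.6%, 24.7% and 14.1%, and the cause was not tested. Of the calls, 82.1%, 76.8% and 45.0% were lower in the first library. These shares were 57.4%, 65.7% and 56.1% with median-of-ratios size factors, and 83.3%, 88.5% and 65.3% scaled to assigned reads. With tags of 21 nt or longer they were 89.7%, 90.3% and 36.6%.

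With tags of 21 nt or longer, the shares of the family in anagen, catagen and telogen became 92.9%, 90.2% and 91.5% for miR-29a-3p and 1.25%, 2.26% and 1.16% for miR-29b-3p. Over distinct tags they became 62.0%, 59.2% and 58.8% for miR-29a-3p, 20%, 22.3% and 19.6% for miR-29b-3p and 18%, 18.5% and 21.6% for miR-29c-3p. The 3p share of miR-29b with tags of 21 nt or longer became 97.9% in anagen and 96.2% in telogen, from 99.1% and 98.0%. Among reads with the shared first 9 nt, the 3 arms made up 99.0%, 99.7% and 99.7%. The match of tags to a hairpin was not run, because no hairpin sequence was used, and leading parts of the mature tag, chosen after seeing the data, changed no call or sign of the 3p arms. No paired analysis was possible because each stage has 1 library. At 1 library per stage, spread between animals, samplings or library preparations cannot be told apart from the stage.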
